A study of Mus musculus with 30 samples.

Results

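The genes described here encode the proteins that bring glucose into a cell, split it to pyruvate, exchange pyruvate and lactate, pass pyruvate to the mitochondrion, and store and release glycogen. A total of 39 genes were named by symbol, and a gene was represented by the brightest probe set of the array annotation that carried its symbol alone. Of these 39 genes, 37 were measured among 19938 genes tested, and Gpi1 and Eno1 had no probe set of their own in this annotation. Gapdh was not among the 39, and its symbol stood only on 25 probe sets shared with other symbols, which were left out.

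RNA was taken from satellite cells, the resident stem cells that lie beside muscle fibres, and hybridised to 30 Affymetrix Mouse Gene 1.0 ST arrays in 10 groups of 3. Activated satellite cells (ASCs) were sorted from mouse hindlimb muscle 36, 60 or 84 h after injury with BaCl2, and quiescent satellite cells (QSCs) from uninjured muscle. Wild-type C57BL6 mice gave cells that carried VCAM and lacked CD31, CD45 and Sca1 (VCAM-sorted), at 22 to 24 months of age (old; QSCs and 60 h) and at 2 to 3 months (young; QSCs and all 3 times). Pax7CreER/+;ROSA26eYFP/+ mice of 2 to 3 months that had received Tamoxifen gave YFP-expressing cells (YFP-sorted; QSCs and all 3 times), so YFP marks cells in which Pax7 was active when Cre was induced, and their progeny. Whether a group's 3 arrays came from separate animals is not stated, so the p values below measure only the spread between arrays, which may be technical.

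Skeletal muscle draws on glucose from the blood and on its own glycogen, and glycolysis turns either into pyruvate, which is reduced to lactate in the cytosol or oxidised in mitochondria after the pyruvate dehydrogenase complex has acted on it. Many steps are carried by alternative enzymes (isozymes) encoded by separate genes, some found widely and some concentrated in muscle fibres, brain or liver. Proliferating cells are known for high glycolytic flux, and the muscle isozymes are known to be induced when myoblasts fuse and mature.

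All values are log2 intensities, and the level of a probe set was not set against that of another gene, because probes differ in brightness. A change was called when the limma model over all 30 arrays gave an adjusted p (Benjamini-Hochberg, over all genes of a comparison) under 0.05 together with a fold change of at least 1.5. Arrays of a group correlated at 0.996 to 0.9983 over all genes, and the pooled SD within groups had a median of 0.08 over the 37 genes (0.03 to 0.14). Satellite cell markers (15 genes) averaged 11.47 to 11.55 in young VCAM QSCs.

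Several features of the samples moved with the groups compared. The 16 macrophage markers averaged 6.44 to 6.50 in young VCAM QSCs, 9.78 to 9.89 at 36 h, 7.94 to 8.05 at 60 h and 8.88 to 8.90 at 84 h, and all 16 were called higher than in QSCs at each of these times. The 14 proliferation genes averaged 7.60 to 7.69 in young VCAM QSCs, 10.61 to 10.67 at 36 h, 11.24 to 11.30 at 60 h and 10.95 to 10.96 at 84 h, all 14 called higher each time. Of the 15 satellite cell markers 11, 12 and 13 were called lower at 36, 60 and 84 h, as were 3, 9 and 8 of the 10 endothelial markers. Some markers went the other way: the endothelial Cldn5 averaged 8.19 in young VCAM QSCs and 8.91 at 36 h. The satellite cell marker Itga7 averaged 11.47 in young VCAM QSCs and 12.41 at 84 h. The 8 pericyte markers averaged 9.98 to 10.06 in young VCAM QSCs and 7.73 to 7.78 at 60 h. The 11 immediate early and heat shock genes averaged 12.96 and 10.12 to 10.20 in the same groups. The 9 fibroblast markers, which did not all move together, averaged 10.08 to 10.14 in QSCs, 10.90 to 10.94 at 36 h and 9.29 to 9.37 at 60 h. The part of these lists in the changes after injury given below was not tested. Xist, the X-linked RNA made in female cells, read between 4.95 and 5.36 in all 18 VCAM arrays and between 5.03 and 5.20 in the 3 YFP arrays of 84 h, but between 10.61 and 11.48 in the 9 other YFP arrays. The Y-linked gene Eif2s3y read 9.85 to 10.58 in the VCAM arrays, and in YFP cells 9.52 to 9.65 in QSCs, 8.04 to 8.09 at 36 h, 8.94 to 9.02 at 60 h and 10.53 to 10.66 at 84 h. Comparisons of VCAM with YFP cells before 84 h, and of YFP cells at 84 h with YFP QSCs, thus also set low against high Xist, those of YFP cells at 36 h and 60 h with YFP QSCs differ in Eif2s3y, and the part of these differences in the values of any gene below was not tested. In bulk RNA, fewer cells of a type and less RNA per cell cannot be told apart.

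After injury the changes differed by position in the pathway, with the largest rise in Eno3, of the lower part of glycolysis, at every time in both sorts. In young VCAM-sorted cells 15 of the 37 genes rose at 36 h (40.5%, against 13.2% of all genes tested) and 5 fell (13.5%, against 9.72%). At 60 h 14 rose (37.8%, against 16.6%) and 8 fell (21.6%, against 12.6%), and at 84 h 16 rose (43.2%, against 16.4%) and 6 fell (16.2%, against 11.2%). In young YFP-sorted cells 9 rose at 36 h (24.3%, against 10.1%) and 4 fell (10.8%, against 6.14%), 14 rose at 60 h (37.8%, against 17.2%) and 7 fell (18.9%, against 12.8%), and 16 rose at 84 h (43.2%, against 17.0%) and 3 fell (8.11%, against 11.2%). With quantile normalization the last split was 16 and 6. Eno3, Tpi1, Pgk1, Pgam1, Pkm, Pfkl, Ldha and Pdk3, 8 genes in all, rose at every time in both sorts, and Phkg1 alone fell at every time in both. Only Hk1, on its brighter probe set, Pfkp, Aldoc and Fbp2 were called in none of the 17 comparisons made.

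**Figure D1:**
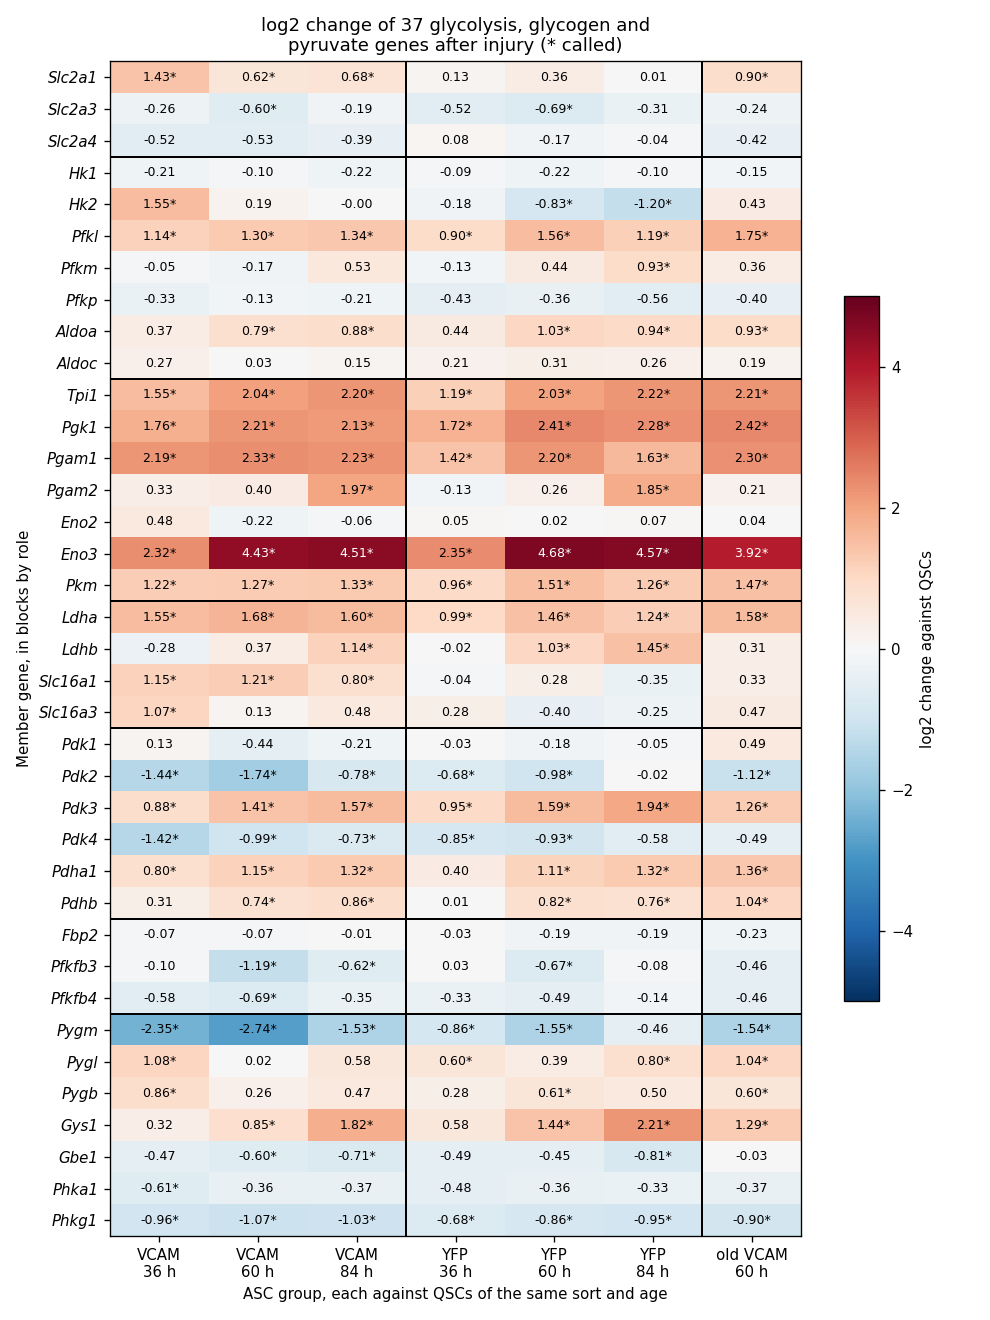
Log2 change of the 37 measured genes (rows, in blocks from glucose uptake at the top to glycogen at the bottom) in ASCs against QSCs of the same sort and age (columns), with called changes starred. The triose block from Tpi1 to Pkm holds most of the large rises, up to 4.68 for Eno3, and Pygm fell by 2.74 in VCAM cells at 60 h, the largest fall.

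The enzymes of the lower part of glycolysis, from triose phosphate isomerase to pyruvate kinase (the triose enzymes here), gave the largest rises. Of the 7 measured, 5 rose at 36 h and at 60 h and 6 at 84 h, in both sorts. Eno3, the enolase of mature muscle fibres (chr11:70653125-70662513, GRCm38.p6), read 7.97, 8.05 and 8.07 in the 3 arrays of young VCAM QSCs, 10.27, 10.37 and 10.42 at 36 h, 12.42, 12.48 and 12.49 at 60 h and 12.53, 12.51 and 12.57 at 84 h. In YFP cells it read 7.75, 7.85 and 7.98 in QSCs, 10.19, 10.20 and 10.25 at 36 h, 12.52, 12.56 and 12.55 at 60 h and 12.41, 12.40 and 12.48 at 84 h. Every ASC array lay above every QSC array, and the level reached by 60 h held at 84 h. The change at 60 h was 4.43 ± 0.05 (standard error) in VCAM cells, or 21.6-fold, with a limma adjusted p of 3.4e-28, and 4.68 ± 0.05 in YFP cells. Eno2, the enolase of neurons, changed by -0.22 at 60 h in VCAM cells and by 0.02 in YFP cells, with no call.

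Tpi1, Pgk1, Pgam1 and Pkm encode the isomerase, kinase, mutase and pyruvate kinase used by most tissues, and all 4 were higher by 36 h. Pgk1, on the X chromosome (chrX:106187100-106203699), read 11.16, 11.21 and 11.25 in VCAM QSCs, 12.98, 12.96 and 12.96 at 36 h, 13.40, 13.42 and 13.43 at 60 h and 13.34, 13.32 and 13.34 at 84 h, and it was 2.21 higher at 60 h than in QSCs (limma adjusted p = 3.6e-25). Within the VCAM arrays Xist was low throughout, so this rise does not set low against high Xist. In YFP cells Pgk1 read 11.00, 11.02 and 11.06 in QSCs, 12.75, 12.74 and 12.77 at 36 h, 13.42, 13.44 and 13.45 at 60 h and 13.29, 13.29 and 13.34 at 84 h. Tpi1 read 10.04, 10.03 and 10.06 in VCAM QSCs, 11.58, 11.59 and 11.62 at 36 h, 12.11, 12.04 and 12.11 at 60 h and 12.26, 12.25 and 12.22 at 84 h. YFP arrays of Tpi1 read 10.12, 10.21 and 10.29 in QSCs, 11.39, 11.43 and 11.36 at 36 h, 12.22, 12.25 and 12.22 at 60 h and 12.44, 12.38 and 12.47 at 84 h. It climbed at each step in both sorts, ending 2.20 above QSCs in VCAM cells and 2.22 above in YFP cells.

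Pgam1 read 9.07, 9.07 and 9.21 in VCAM QSCs, 11.28, 11.27 and 11.38 at 36 h, 11.41, 11.41 and 11.51 at 60 h and 11.38, 11.32 and 11.34 at 84 h. The YFP arrays read 9.34, 9.40 and 9.63 in QSCs, 10.86, 10.82 and 10.95 at 36 h, 11.62, 11.65 and 11.68 at 60 h and 11.09, 10.99 and 11.18 at 84 h. Most of its rise in VCAM cells was thus in place at 36 h (2.19), when the change in YFP cells was 1.42, and the responses differed by 0.77 (limma adjusted p = 1.1e-07). Pkm rose by 1.22, 1.27 and 1.33 at 36, 60 and 84 h in VCAM cells and by 0.96, 1.51 and 1.26 in YFP cells, with arrays at 12.37, 12.35 and 12.40 at 60 h against 11.13, 11.12 and 11.06 in VCAM QSCs, and at 12.53, 12.48 and 12.47 at 60 h against 10.96, 10.96 and 11.02 in YFP QSCs. The probe set does not tell the M1 from the M2 splice form of Pkm. Glycolytic genes, Pgk1 and Gapdh among them, have near-identical copies elsewhere in the mouse genome, and how much such copies add to these probe sets is uncertain.

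Pgam2, the mutase of muscle fibres, followed another course. It read 6.48, 6.58 and 6.34 in VCAM QSCs, 6.81, 6.80 and 6.79 at 36 h and 6.68, 6.98 and 6.94 at 60 h, and only then 8.39, 8.45 and 8.47 at 84 h. In YFP cells it read 6.82, 6.69 and 6.88 in QSCs, 6.56, 6.86 and 6.60 at 36 h, 7.05, 7.23 and 6.91 at 60 h and 8.63, 8.59 and 8.73 at 84 h. Up to 60 h no change of it was called, and from 60 h to 84 h it rose by 1.57 ± 0.10 in VCAM cells (limma adjusted p = 1.7e-12), the largest rise among the 37 genes in that interval. Of all 37, 6 rose between 60 h and 84 h (16.2%, against 3.22% of all genes) and 0 fell (against 0.732%). These 6 were Pgam2, Pygm (1.21), Gys1 (0.97), Pdk2 (0.96), Ldhb (0.77) and Pfkm (0.69). The 20 differentiation genes averaged 10.29 to 10.34 in the 84 h arrays of VCAM cells and 8.53 to 8.59 in the 60 h arrays, and the 16 genes of adult fibres 8.44 and 7.38 to 7.44, and their part in these 6 rises was not tested.

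The promoter windows of 4 of these genes are printed to set 2 genes that rose by 36 h and are used widely (Pgk1 and Ldha) beside 2 muscle enzymes (Eno3 and Pgam2). Each is the 250 bases that precede a RefSeq transcript start in GRCm38.p6, 5′ to 3′ in the direction of the gene, with ACGTG on either strand in capitals, the core shared by the hypoxia response element and the CACGTG E-box. Pgk1 is at chrX:106186850-106187099 (plus strand), Ldha at chr7:46845554-46845803 (plus), Eno3 at chr11:70656926-70657175 (plus) and Pgam2 at chr11:5803797-5804046 (minus).
Pgk1: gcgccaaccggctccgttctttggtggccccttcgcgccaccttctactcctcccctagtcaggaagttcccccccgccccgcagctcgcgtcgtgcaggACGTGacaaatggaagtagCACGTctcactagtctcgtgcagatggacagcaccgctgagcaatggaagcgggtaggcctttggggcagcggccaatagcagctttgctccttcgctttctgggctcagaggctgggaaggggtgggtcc
Ldha: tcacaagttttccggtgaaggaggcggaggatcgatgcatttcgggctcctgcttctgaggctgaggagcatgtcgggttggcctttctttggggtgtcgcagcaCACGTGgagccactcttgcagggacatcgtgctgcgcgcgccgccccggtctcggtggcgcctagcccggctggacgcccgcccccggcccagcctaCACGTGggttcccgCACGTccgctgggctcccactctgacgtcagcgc
Eno3: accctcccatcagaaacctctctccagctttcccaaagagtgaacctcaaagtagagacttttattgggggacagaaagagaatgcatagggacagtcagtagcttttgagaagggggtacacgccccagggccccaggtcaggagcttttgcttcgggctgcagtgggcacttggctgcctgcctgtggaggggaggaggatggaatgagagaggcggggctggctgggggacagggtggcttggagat
Pgam2: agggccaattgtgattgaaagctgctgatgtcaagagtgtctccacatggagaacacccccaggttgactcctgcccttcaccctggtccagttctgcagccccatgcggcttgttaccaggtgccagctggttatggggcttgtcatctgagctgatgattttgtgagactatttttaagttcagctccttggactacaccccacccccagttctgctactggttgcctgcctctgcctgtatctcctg
The printed Ldha window held 5 matches when both strands were counted, so that each palindromic CACGTG counts as 2, the Pgk1 window held 2, and the Eno3 and Pgam2 windows held 0. Ldha has another window, at chr7:46846832-46847081, that held 0. The Eno3 window and the Ldha windows lie inside the full RefSeq spans of these genes, so the bases before those spans were not examined. The contrast of these 4 genes did not extend to all others. The window of the widely used Tpi1 held 0, and those of the muscle genes Pygm and Fbp2 held 1 and 2. Over the 51 windows of the 37 genes found in the RefSeq table (35 of them measured, with Gpi1 and Eno1 besides), 21 held ACGTG (41.2%), against 5444 of all 32851 windows (16.6%). By course, 7 of the 12 genes called higher at 60 h in both sorts had it in at least 1 window, as did 3 of the 5 called lower that had a window and 8 of the 18 others. The E-box CANNTG is the site class of MyoD and myogenin and one that contains CACGTG. It stood in 64.7% of the 51 windows and in 66.2% of all. The window of Pgam2 held it 5 times, as did that of Phkg1, which fell. A match in these letters is not evidence that a factor binds.

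**Figure D2:**
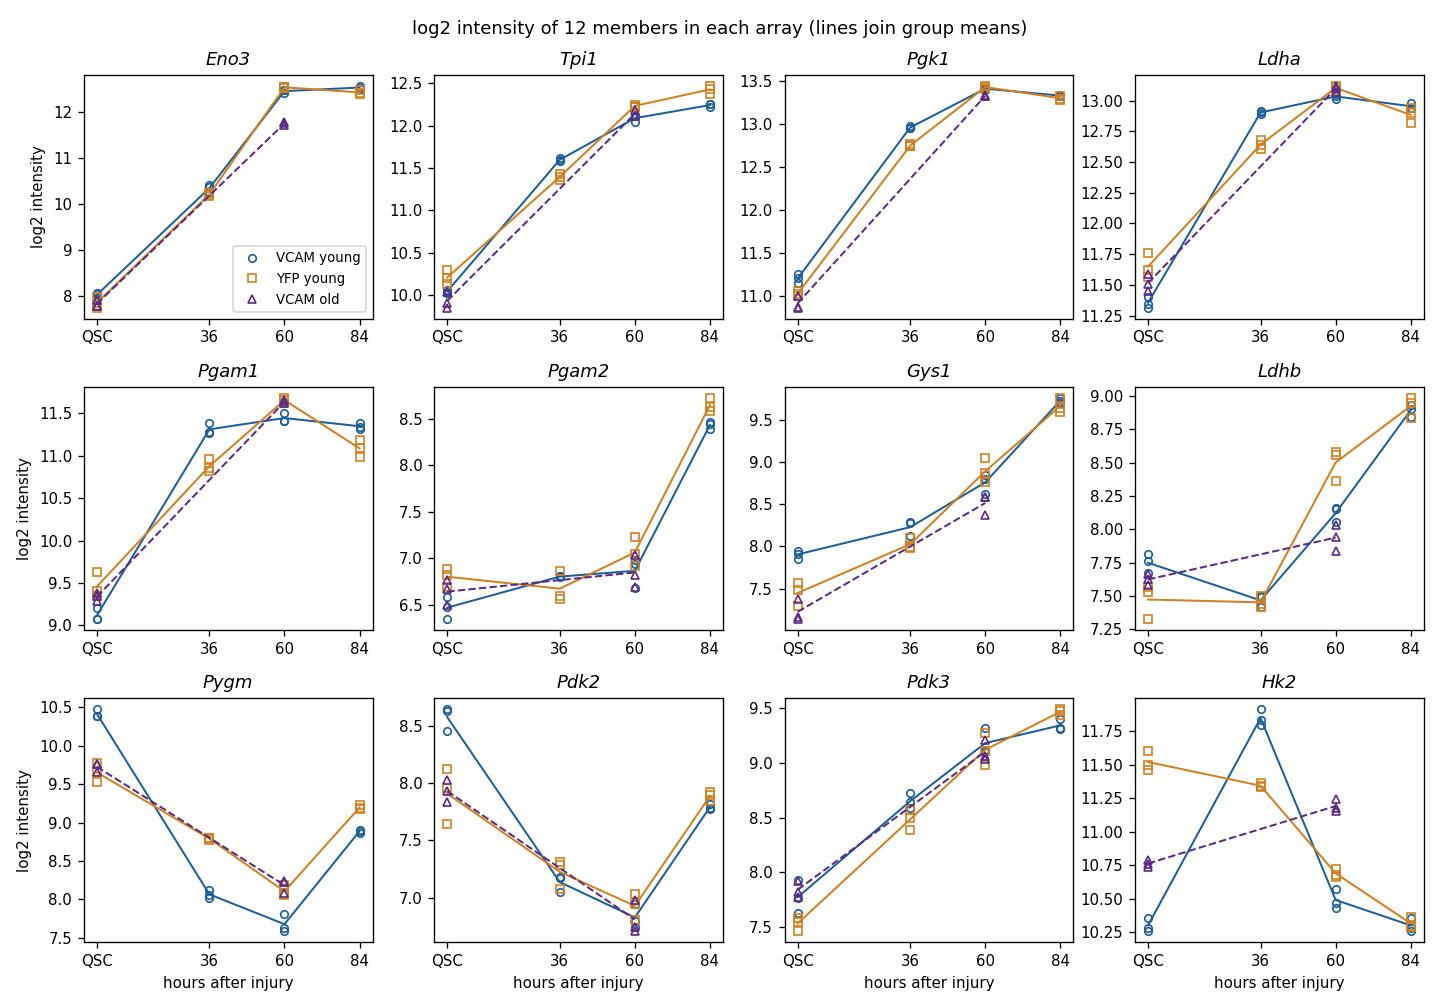
Log2 intensity of 12 genes in each array against hours after injury (QSCs at the left), for young VCAM cells (circles), young YFP cells (squares) and old VCAM cells (triangles), with lines through group means. Eno3, Tpi1, Pgk1, Pgam1 and Ldha were high by 60 h, Pgam2, Gys1 and Ldhb were highest at 84 h, and Pygm and Pdk2 were lowest at 60 h.

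The subunits of lactate dehydrogenase also comprised an early and a late form. Ldha, the lactate dehydrogenase subunit that predominates in fast muscle, read 11.40, 11.35 and 11.31 in VCAM QSCs, 12.89, 12.91 and 12.91 at 36 h, 13.01, 13.04 and 13.06 at 60 h and 12.94, 12.94 and 12.98 at 84 h. YFP arrays of Ldha read 11.56, 11.62 and 11.76 in QSCs, 12.61, 12.64 and 12.68 at 36 h, 13.08, 13.12 and 13.12 at 60 h and 12.94, 12.82 and 12.90 at 84 h. It was 1.68 above QSCs at 60 h in VCAM cells and 1.46 above in YFP cells (limma adjusted p = 4.5e-21 and 1e-19). Ldhb, the subunit that predominates in heart, read 7.82, 7.67 and 7.76 in VCAM QSCs, 7.42, 7.50 and 7.49 at 36 h, 8.05, 8.16 and 8.15 at 60 h and 8.93, 8.90 and 8.84 at 84 h, and its 84 h arrays lay above all others. It was 1.14 above QSCs at 84 h in VCAM cells and 1.45 in YFP cells, but the dimmer of its 2 probe sets gave 0.55 (not called) and 1.05 (called), so of its calls against QSCs only that of YFP cells at 84 h held with both.

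The monocarboxylate transporters Slc16a1 (MCT1) and Slc16a3 (MCT4, an exporter of lactate from glycolytic cells) differed between the sorts. Slc16a1 read 10.37, 10.48 and 10.44 in VCAM QSCs, 11.61, 11.57 and 11.58 at 36 h, 11.58, 11.69 and 11.66 at 60 h and 11.24, 11.26 and 11.20 at 84 h, a rise of 1.21 at 60 h (limma adjusted p = 7.2e-19). In YFP cells it read 11.36, 11.39 and 11.46 in QSCs, 11.42, 11.32 and 11.34 at 36 h, 11.69, 11.63 and 11.73 at 60 h and 11.03, 11.03 and 11.10 at 84 h, and no change from QSCs was called. Slc16a3 read 8.89, 8.91 and 8.86 in VCAM QSCs, 9.95, 9.93 and 9.9994 at 36 h, 9.01, 8.98 and 9.05 at 60 h and 9.33, 9.40 and 9.38 at 84 h. The highest arrays were those of 36 h, and the change between 60 h and 36 h was -0.95 in VCAM cells. In YFP cells no change of Slc16a3 from QSCs was called. Its YFP arrays read 10.04, 10.04 and 10.06 at 36 h and 9.35, 9.33 and 9.43 at 60 h, without overlap. Those YFP times were not compared with each other.

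Upstream, the hexose steps and glucose uptake were less uniform. Of the 3 glucose transporters only Slc2a1 (GLUT1, the widespread basal form) rose, and of the 7 genes of the hexose steps only Hk2 and Pfkl rose at 36 h in VCAM cells and Pfkl and Aldoa at 60 h. Slc2a1 read 10.19, 10.23 and 10.31 in VCAM QSCs, 11.64, 11.65 and 11.73 at 36 h, 10.81, 10.84 and 10.96 at 60 h and 10.94, 10.86 and 10.98 at 84 h. YFP arrays of Slc2a1 read 10.98, 10.98 and 11.03 in QSCs, 11.13, 11.13 and 11.12 at 36 h, 11.31, 11.36 and 11.40 at 60 h and 10.99, 10.99 and 11.03 at 84 h. The VCAM series peaked at 36 h, 1.43 above QSCs, and no change of the YFP series from QSCs was called. The rise at 60 h in VCAM cells, 0.62, was lost with quantile normalization (0.46) and without the third array of 60 h (0.58). Slc2a3 (GLUT3) fell by 0.60 at 60 h in VCAM cells, a call lost with arrays centred on their medians (-0.52) or without the second array of 60 h (-0.56), and fell by 0.69 in YFP cells. Slc2a4 (GLUT4, which responds to insulin in muscle and fat) was not called against QSCs, with changes from -0.53 to 0.08.

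Hk2, the hexokinase of insulin-sensitive tissue, read 10.26, 10.29 and 10.36 in VCAM QSCs, 11.80, 11.83 and 11.91 at 36 h, 10.43, 10.47 and 10.57 at 60 h and 10.29, 10.26 and 10.36 at 84 h. YFP arrays of Hk2 read 11.46, 11.50 and 11.61 in QSCs, 11.33, 11.34 and 11.36 at 36 h, 10.67, 10.68 and 10.73 at 60 h and 10.30, 10.29 and 10.36 at 84 h. The VCAM series was highest at 36 h, whereas the YFP series began high and fell by 0.83 at 60 h and by 1.20 at 84 h. Pfkl, the liver form of phosphofructokinase, which commits sugar to glycolysis, read 7.77, 7.90 and 8.0007 in VCAM QSCs, 8.99, 8.96 and 9.13 at 36 h, 9.05, 9.18 and 9.33 at 60 h and 9.24, 9.15 and 9.28 at 84 h. In YFP cells Pfkl read 7.68, 8.04 and 8.09 in QSCs, 8.85, 8.86 and 8.81 at 36 h, 9.52, 9.44 and 9.54 at 60 h and 9.14, 9.09 and 9.15 at 84 h. Pfkm, the muscle form, was 0.53 (VCAM, not called) and 0.93 (YFP, called) above QSCs at 84 h, and Pfkp, the platelet form, lay below QSCs at every time with no call. Aldoa, the aldolase of muscle, had arrays at 12.80, 12.83 and 12.88 at 60 h against 12.01, 12.07 and 12.07 in VCAM QSCs, and at 12.91, 12.95 and 13.01 against 11.87, 11.94 and 11.97 in YFP QSCs, a rise of 0.79 and 1.03, while Aldoc, the brain form, moved by no more than 0.31. Hk1 was flat on its brighter probe set, near 13.5, which the annotation ties to 1 accession, but on the dimmer one, tied to 8, it changed by -0.66 at 60 h in VCAM cells (called) and by -0.12 in YFP cells (not called).

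The switch that sends pyruvate to mitochondria changed on both sides. Pyruvate dehydrogenase kinases (Pdk1 to Pdk4) inhibit the complex, and Pdha1 and Pdhb encode its E1 subunits. Pdk4, induced by fasting and fatty acids, read 11.29, 11.37 and 11.34 in VCAM QSCs, 9.95, 9.84 and 9.96 at 36 h, 10.30, 10.31 and 10.43 at 60 h and 10.59, 10.59 and 10.63 at 84 h, and it fell by 1.42 at 36 h in VCAM cells and fell by 0.85 in YFP cells. Pdk2 read 8.45, 8.62 and 8.64 in VCAM QSCs, 7.17, 7.05 and 7.18 at 36 h, 6.74, 6.80 and 6.94 at 60 h and 7.78, 7.82 and 7.77 at 84 h, and was lowest at 60 h, with a change of -1.74 from QSCs (limma adjusted p = 4.6e-15). In YFP cells Pdk2 fell by 0.98 at 60 h and was back at the QSC level at 84 h (-0.02).

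Pdk3, an X-linked kinase, moved the other way. It read 7.62, 7.77 and 7.93 in VCAM QSCs, 8.64, 8.59 and 8.72 at 36 h, 9.12, 9.11 and 9.32 at 60 h and 9.31, 9.40 and 9.32 at 84 h. In YFP cells Pdk3 read 7.55, 7.46 and 7.59 in QSCs, 8.50, 8.39 and 8.57 at 36 h, 9.11, 8.99 and 9.27 at 60 h and 9.49, 9.44 and 9.48 at 84 h. It rose at every time, by 1.57 at 84 h in VCAM cells and 1.94 in YFP cells. Pdha1, also X-linked, read 12.22, 12.21 and 12.23 at 84 h against 10.92, 10.92 and 10.87 in VCAM QSCs, and 12.31, 12.31 and 12.29 against 10.95, 10.98 and 11.03 in YFP QSCs, a rise of 1.32 and 1.32. Pdhb rose by 0.74 and 0.82 at 60 h in VCAM and YFP cells, and Pdk1, a target of HIF in many cells, was not called against QSCs at any time. The YFP rises at 84 h also set low against high Xist, whereas the VCAM rises do not.

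The enzymes that set fructose 2,6-bisphosphate, the activator of phosphofructokinase, fell at 60 h where they were called. Pfkfb3, which mostly makes this activator, read 9.54, 9.65 and 9.69 in VCAM QSCs, 9.52, 9.56 and 9.50 at 36 h, 8.28, 8.44 and 8.57 at 60 h and 8.99, 9.02 and 9.0021 at 84 h, a fall of 1.19 at 60 h (limma adjusted p = 7e-15), and fell by 0.67 in YFP cells. The 60 h arrays were the low ones in both sorts. Pfkfb4, a related enzyme, changed by -0.69 at 60 h in VCAM cells (called) and by -0.49 in YFP cells (not called), and Fbp2, the fructose bisphosphatase of muscle, changed by -0.19 to -0.01.

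Glycogen genes moved in opposite directions. Pygm, the glycogen phosphorylase of muscle, whose loss causes McArdle disease (chr19:6384408-6398464), read 10.39, 10.39 and 10.47 in VCAM QSCs, 8.12, 8.02 and 8.05 at 36 h, 7.81, 7.63 and 7.58 at 60 h and 8.89, 8.90 and 8.87 at 84 h. In YFP cells it read 9.52, 9.78 and 9.66 in QSCs, 8.80, 8.77 and 8.80 at 36 h, 8.07, 8.06 and 8.19 at 60 h and 9.19, 9.17 and 9.22 at 84 h. The lowest arrays were those of 60 h, with changes from QSCs of -2.74 in VCAM cells and -1.55 in YFP cells (limma adjusted p = 3.9e-23 and 7.3e-18). Gys1, the glycogen synthase of muscle (chr7:45434839-45456617), read 7.86, 7.95 and 7.91 in VCAM QSCs, 8.29, 8.12 and 8.28 at 36 h, 8.63, 8.80 and 8.85 at 60 h and 9.69, 9.76 and 9.72 at 84 h. In YFP cells Gys1 read 7.49, 7.57 and 7.29 in QSCs, 7.9958, 7.98 and 8.10 at 36 h, 8.86, 8.76 and 9.04 at 60 h and 9.63, 9.60 and 9.76 at 84 h. It climbed at each step, to 1.82 above QSCs in VCAM cells and 2.21 in YFP cells at 84 h.

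The catalytic subunit of muscle phosphorylase kinase, Phkg1, fell at every time, with arrays at 5.28, 5.32 and 5.37 at 60 h against 6.42, 6.30 and 6.45 in VCAM QSCs, a fall of 1.07, and of 0.86 in YFP cells. Its regulatory partner Phka1 fell past the threshold only at 36 h in VCAM cells (-0.61), a call lost without the third QSC array (-0.55) or without the first or second array of 36 h (-0.57 and -0.58). Gbe1, which branches the glycogen chain, fell by 0.71 at 84 h in VCAM cells and by 0.81 in YFP cells. Pygl, the liver phosphorylase, read 6.33, 6.35 and 6.27 in VCAM QSCs, 7.37, 7.35 and 7.46 at 36 h, 6.42, 6.29 and 6.31 at 60 h and 6.99, 6.85 and 6.87 at 84 h, a course high at 36 h, near the QSC level at 60 h and above it at 84 h. The macrophage markers given above had the same order of stages, and their part in the level of Pygl was not tested. Pygb, the brain phosphorylase, was 0.86 above QSCs at 36 h in VCAM cells (called).

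Between 60 h and 36 h in VCAM cells, 2 genes rose (5.41%, against 6.26%) and 7 fell (18.9%, against 8.49%). The rises were Eno3 (2.11) and Ldhb (0.65), the second of which was not called with the dimmer probe set. The falls were Hk2 (-1.36), Pfkfb3 (-1.10), Pygl (-1.05), Slc16a3 (-0.95), Slc2a1 (-0.81), Eno2 (-0.70) and Pygb (-0.60), and all 16 macrophage markers and all 10 endothelial markers also fell over this interval, whose part in these falls was not tested. With arrays centred on their medians, where the median of all genes was 0.11 higher at 60 h, the split was 5 and 5, and Eno2 and Pygb were not among the falls.

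Whether isozymes of 1 step changed unequally was tested on the difference between their log2 changes, array by array, which cancels a constant difference in probe brightness. It does not cancel a smaller response of dim probe sets. Aldoc, Pygl and Pgam2 averaged 6.51, 6.74 and 7.12 over the 30 arrays, whose medians were 7.03 to 7.16. The part of dimness in their differences was not tested. In 13 pairs at 3 times, an exact two-sided permutation test of arrays within each sort (400 arrangements, smallest possible p 0.005) gave 29 of 39 differences at an adjusted p under 0.05. Pairs of other genes were not tested, so this count cannot tell whether isozymes differ more often than any 2 genes. Pgam2 minus Pgam1 was -1.70 and -1.93 at 36 h and 60 h (exact p = 0.005, adjusted p = 0.00722, for each). At 84 h it was -0.019 (exact p = 0.835), the mean of -0.26 in VCAM cells and 0.22 in YFP cells. Ldhb minus Ldha was -1.42 and -0.87 at 36 h and 60 h (exact p = 0.005 for each). At 84 h it was -0.12 (exact p = 0.315), with VCAM cells at -0.46 and YFP cells at 0.22. That pair used the brighter Ldhb probe set. On the dimmer one Ldhb changed at 84 h by 0.55 in VCAM and 1.05 in YFP cells, against 1.60 and 1.24 for Ldha. The pair was not tested on the dimmer probe set alone. Pfkm minus Pfkl was -1.11, -1.29 and -0.54 at 36, 60 and 84 h (exact p = 0.005 for each), whereas Pfkm minus Pfkp was 0.29 at 36 h (exact p = 0.005), 0.39 at 60 h (exact p = 0.085) and 1.11 at 84 h (exact p = 0.005). The phosphorylases and the pyruvate dehydrogenase kinases moved apart at all times, Pygm minus Pygb being -2.18, -2.58 and -1.48 and Pdk3 minus Pdk2 1.98, 2.86 and 2.16 at 36, 60 and 84 h (exact p = 0.005 for each). The sorts gave the same sign in 30 of the 39 differences, but Hk2 against Hk1, on the brighter Hk1 probe set, was 1.76 in VCAM cells and -0.085 in YFP cells at 36 h (mean 0.84, exact p = 0.08).

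**Figure D3:**
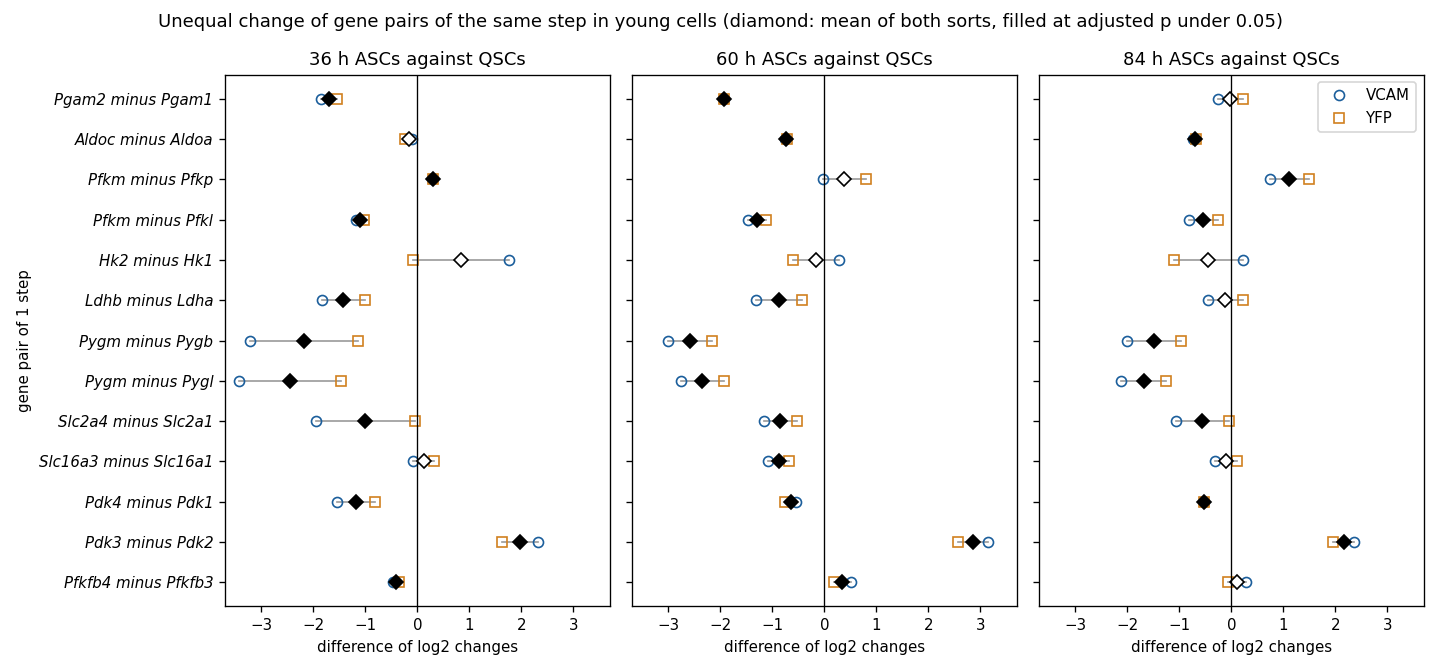
Difference of the log2 changes of 2 genes of the same step, first minus second, at 36, 60 and 84 h against QSCs, in young VCAM cells (circles), young YFP cells (squares) and as their mean (diamonds, filled at an adjusted p under 0.05 by the exact permutation test). Pgam2 minus Pgam1 was -0.019 at 84 h, the mean of -0.26 in VCAM cells and 0.22 in YFP cells. Pygm minus Pygb and Pdk3 minus Pdk2 stayed apart at all 3 times.

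The comparison of sorts set VCAM-sorted cells of wild-type mice against YFP-sorted cells of Pax7CreER/+;ROSA26eYFP/+ mice that had received Tamoxifen. Sort, genotype and Tamoxifen thus cannot be told apart in any difference between sorts. In VCAM against YFP QSCs 2 of the 37 genes were higher (5.41%, against 1.74%) and 4 lower (10.8%, against 1.82%). Higher in VCAM QSCs were Pygm, by 0.76, and Pdk2, by 0.67. Lower were Hk2 (-1.22 ± 0.05), Slc16a1 (-0.97), Slc16a3 (-0.88) and Slc2a1 (-0.75). The call of Pdk2 was lost without the first array of YFP QSCs (0.53). The 8 pericyte markers averaged 9.98 to 10.06 in VCAM QSCs and 8.83 to 8.87 in YFP QSCs, and the 16 macrophage markers 6.44 to 6.50 and 6.44 to 6.48. In VCAM QSCs 3 of 15 satellite cell markers and 3 of 14 proliferation genes were also called higher, and of 16 genes of adult fibres 2 were higher, Actn3 (1.36) and Atp2a1 (0.96), and 3 lower. The part of these in the values above was not tested.

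At 36 h, 2 genes were higher in VCAM cells, Pygb by 0.71 and Eno2 by 0.59 (5.41%, against 2.78%), and 2 were lower, Pygm (-0.73) and Pdk4 (-0.71) (5.41%, against 2.49%). Eno2 was not called with quantile normalization (0.56; split 1 and 2) or without the third VCAM (0.52) or the first (0.54) or second (0.56) YFP array of 36 h. At 60 h 0 were called higher (against 0.557% of all genes) and 0 lower (against 0.757%), and at 84 h 0 higher (against 0.446%) and 0 lower (against 1.21%), although limma put 19 (51.4%, against 25.1% of all genes) and 16 (43.2%, against 31.9%) at an unadjusted p under 0.05, with -0.49 for Slc2a1 at 60 h as the largest difference. The response at 36 h itself, VCAM minus YFP, was larger for 6 genes (16.2%, against 4.47%) and smaller for 3 (8.11%, against 4.61%). It was larger for Hk2 (1.72), Slc2a1 (1.30), Slc16a1 (1.20), Slc16a3 (0.80), Pgam1 (0.77) and Pygb (0.59), and smaller for Pygm (-1.49), Pdk2 (-0.76) and Slc2a4 (-0.60). With centred arrays the split was 7 and 2 and Slc2a4 was not called (-0.53), and the calls of Slc2a4 and Pygb were also lost without single arrays. At 36 h the 10 endothelial markers averaged 8.63 to 8.71 in VCAM cells and 9.91 to 9.92 in YFP cells. The 15 satellite cell markers averaged 9.68 to 9.73 and 10.31 to 10.32. The 11 immediate early and heat shock genes averaged 11.31 to 11.36 and 11.89 to 11.93. The 9 fibroblast markers, which did not all go the same way, averaged 10.90 to 10.94 and 10.40 to 10.42. The part of these lists in the differences between sorts was not tested.

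**Figure D4:**
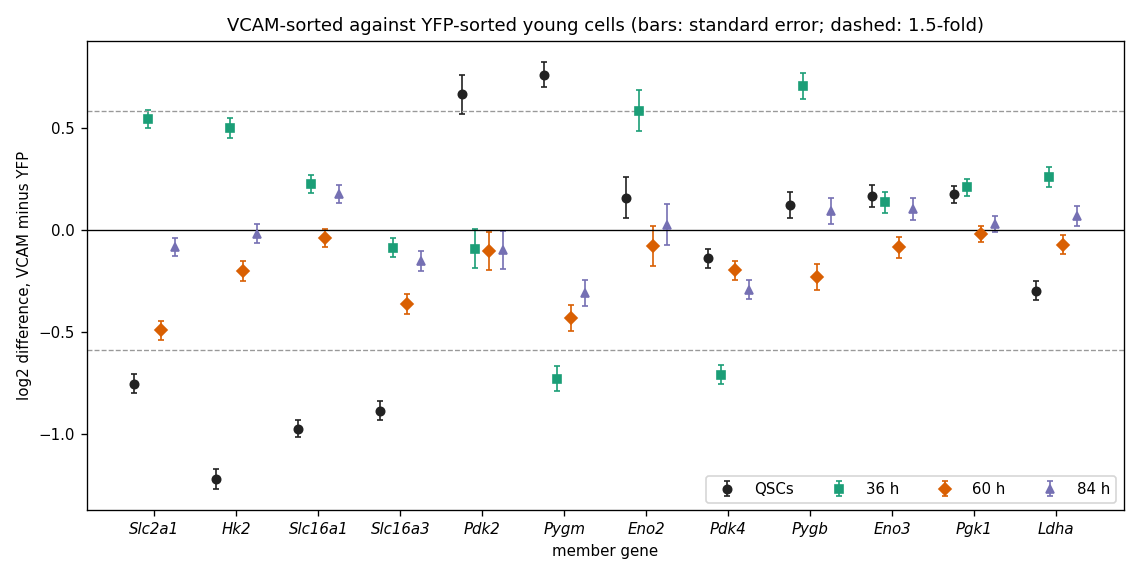
Log2 difference between VCAM and YFP cells of young mice for 12 genes in QSCs and at 36, 60 and 84 h, with standard errors and dashed lines at 1.5-fold. Hk2, Slc16a1, Slc16a3 and Slc2a1 lay below the lower line in QSCs only, and no gene of the 37 lay past a line at 60 h or 84 h.

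The comparison of ages asked which of these genes differ in cells of old mice. In old against young VCAM-sorted QSCs 2 genes were higher (5.41%, against 3.04%) and 5 lower (13.5%, against 4.70%). Both higher genes were lactate transporters. Slc16a1 read 11.44, 11.42 and 11.37 in old QSCs, against 10.37, 10.48 and 10.44 in young QSCs, and Slc16a3 read 9.91, 10.03 and 10.08 in old QSCs, against 8.89, 8.91 and 8.86 in young QSCs. The differences were 0.98 and 1.12 (limma adjusted p = 2.1e-15 and 6.3e-16). Young YFP QSCs averaged 11.40 for Slc16a1 and 9.77 for Slc16a3, nearer to old than to young VCAM QSCs. These differences thus hold against young VCAM QSCs and were not tested against young YFP QSCs. Fibroblast markers moved both ways in the old and young VCAM arrays. Lum averaged 9.04 in old and 7.60 in young QSCs, and Pdgfra 9.24 and 8.29, but Dpt 11.24 and 12.16, and Col3a1 11.36 and 12.71. The 16 macrophage markers averaged 6.66 to 6.72 in old and 6.44 to 6.50 in young QSCs. The part of these markers in the 2 differences was not tested.

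The 5 lower genes were Pygm, Gys1, Pfkm, Pdk2 and Pdhb. Other markers were lower in the same arrays: 6 of 15 satellite cell markers, 6 of 8 pericyte markers, 5 of 14 proliferation genes, 4 of 20 differentiation genes and 2 of 16 genes of adult fibres, Atp2a1 (-1.51) and Actn3 (-1.08), with none of these lists holding a gene called higher. The satellite list averaged 10.97 to 11.00 in old QSCs and 11.47 to 11.55 in young QSCs, and the pericyte list 9.27 to 9.36 and 9.98 to 10.06, and their part in these 5 differences was not tested. Pygm read 9.66, 9.76 and 9.76 in old QSCs, against 10.39, 10.39 and 10.47 in young QSCs, and Gys1 7.14, 7.38 and 7.17 in old QSCs, against 7.86, 7.95 and 7.91 in young QSCs, differences of -0.69 and -0.68. In young YFP QSCs Pygm read 9.52, 9.78 and 9.66 and Gys1 7.49, 7.57 and 7.29. Pdk2 averaged 7.91 there, against 7.93 in old QSCs. Pfkm and Pdhb averaged 8.71 and 10.77 in young YFP QSCs, between old (8.35 and 10.25) and young VCAM QSCs (8.98 and 10.86). Pdk2 (-0.64), Pfkm (-0.62) and Pdhb (-0.62) lay just past the threshold of 1.5-fold, and those of Pfkm and Pdhb were lost with quantile normalization (-0.57 and -0.58, a split of 2 and 3). Pfkm was also lost without the third young (-0.58) or first old QSC array (-0.58), and Pdhb without the second young (-0.58) or second old one (-0.57).

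At 60 h 6 genes were higher in old cells (16.2%, against 4.75%) and 1 lower (2.7%, against 0.657%). Slc16a3 was higher by 1.46, with 10.58, 10.43 and 10.42 in old ASCs, against 9.01, 8.98 and 9.05 in young ASCs. Pygl was higher by 0.95, with 7.33, 7.21 and 7.34 in old ASCs, against 6.42, 6.29 and 6.31 in young ASCs. Pfkfb3 was higher by 0.95, with 9.40, 9.32 and 9.44 in old ASCs, against 8.28, 8.44 and 8.57 in young ASCs. Pdk1 (higher by 0.96), Slc2a1 (0.73) and Hk2 (0.70) complete the 6. Eno3 alone was lower in old cells (-0.70, limma adjusted p = 3.6e-11), with 11.77, 11.73 and 11.78 in old ASCs, against 12.42, 12.48 and 12.49 in young ASCs.

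The 7 genes that differed at 60 h moved with markers of other cells and of differentiation. All 16 macrophage markers were called higher in old 60 h ASCs, averaging 9.71 to 9.79 in old and 7.94 to 8.05 in young arrays, and 7 of 10 endothelial markers were higher, averaging 7.93 to 7.96 and 7.03 to 7.07, as were 5 of 9 fibroblast and 4 of 8 pericyte markers. The 20 differentiation genes averaged 8.16 to 8.20 in old and 8.53 to 8.59 in young 60 h arrays. The part of these in the differences between ages was not tested. The widely used triose enzymes and Ldha did not differ past the threshold at 60 h: old minus young was 0.05 for Tpi1, -0.08 for Pgk1, 0.19 for Pgam1, 0.05 for Pkm and 0.06 for Ldha.

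**Figure D5:**
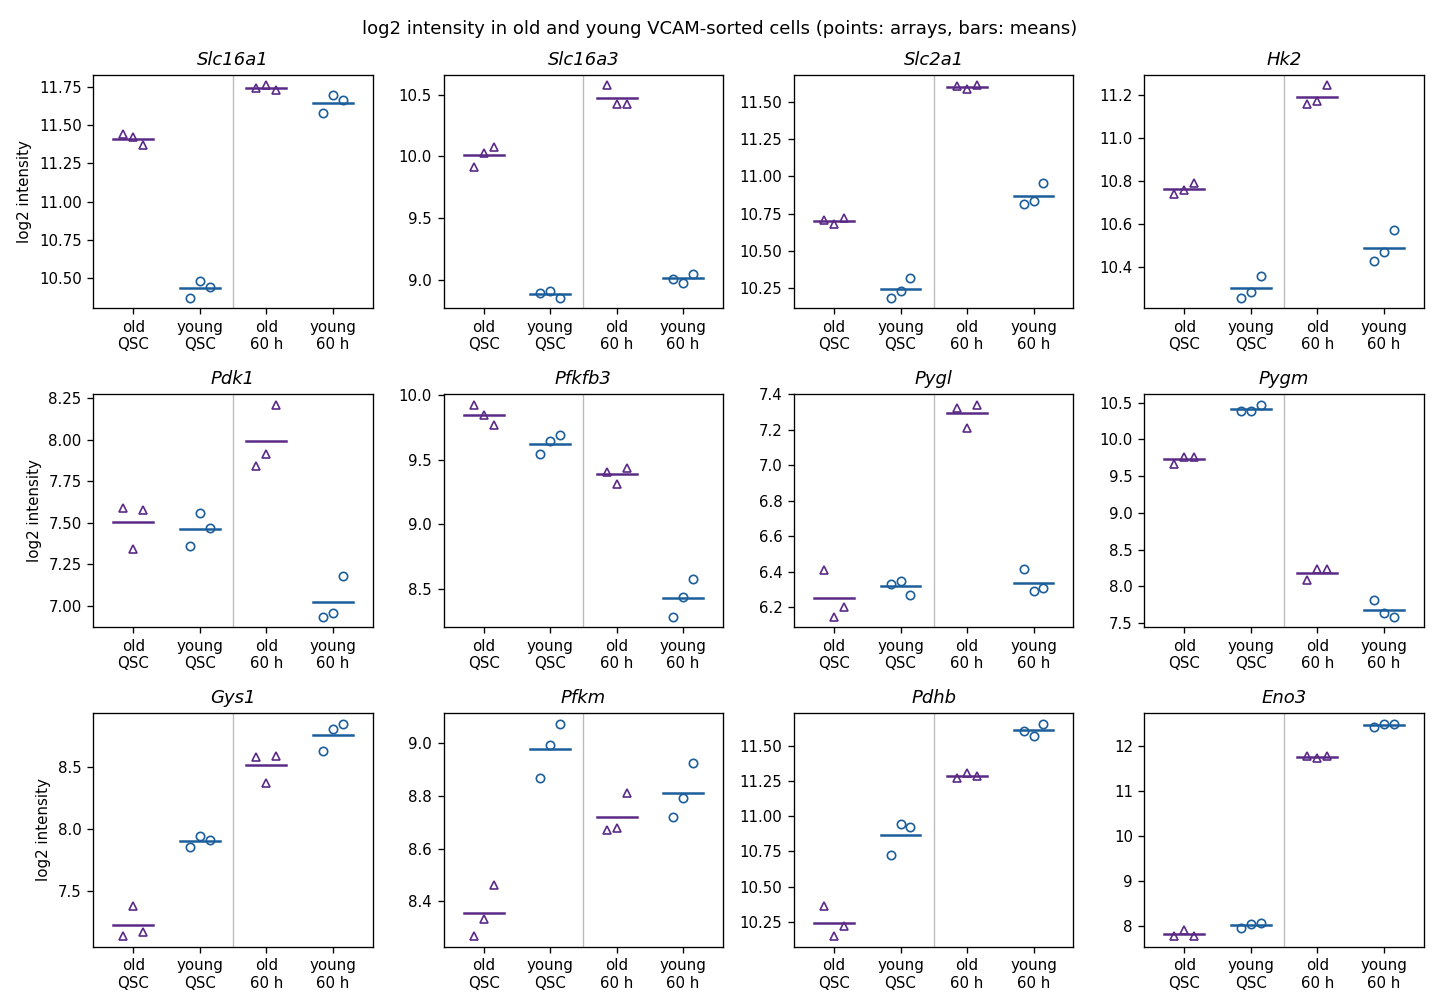
Log2 intensity of 12 genes in each array of old and young VCAM-sorted cells, QSCs on the left and 60 h ASCs on the right of each panel, with bars at group means. Slc16a1 and Slc16a3 stood higher in old QSCs, by 0.98 and 1.12, and at 60 h Slc16a3, Pdk1, Pfkfb3, Pygl, Slc2a1 and Hk2 stood higher and Eno3 lower in old cells.

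Within old cells, 15 of the 37 genes rose at 60 h over QSCs (40.5%, against 17.8%) and 3 fell (8.11%, against 11.7%). Eno3 rose by 3.92, Pgk1 by 2.42, Pgam1 by 2.30 and Tpi1 by 2.21, and the 3 that fell were Pygm (-1.54), Pdk2 (-1.12) and Phkg1 (-0.90). With quantile normalization the split was 14 and 7. The response at 60 h, old minus young, was larger (or less negative) in 5 genes (13.5%, against 6.81%) and smaller in 1 (2.7%, against 2.16%), a split of 4 and 2 with quantile normalization or centring, where Pdk2 was not called. The values were 1.20 for Pygm, 1.02 for Pygl, 0.92 for Pdk1, 0.73 for Pfkfb3, 0.63 for Pdk2 and -0.88 for Slc16a1. In young YFP cells Pygm changed by -1.55, Pdk2 by -0.98 and Slc16a1 by 0.28, against -2.74, -1.74 and 1.21 in young VCAM cells. Those of Pygm and Pdk2 in young YFP cells were thus near those of old cells. Pygl, Pdk1 and Pfkfb3 changed by 0.39, -0.18 and -0.67 in young YFP cells. Old cells were not tested against YFP cells. For Pygm, Pdk2 and Slc16a1 the ages were called different in QSCs and not at 60 h, and for Pygl, Pdk1 and Pfkfb3 at 60 h and not in QSCs.

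Other genes of the same pathways, 58 of a list of 65, were measured too. At 60 h in young VCAM cells 11 rose (19%, against 16.6% of all genes) and 9 fell (15.5%, against 12.6%), shares near those of all genes, with a median change of 0.04 against -0.04. In YFP cells 14 rose (24.1%, against 17.2%) and 7 fell (12.1%, against 12.8%). Slc2a12 (GLUT12) fell by 3.31 in VCAM cells and fell by 2.65 in YFP cells. Gpd2, the mitochondrial arm of the glycerol phosphate shuttle, rose by 2.61 and 2.42, Pgd, of the oxidative pentose phosphate pathway, by 2.29 and 1.89, and Dlat, the E2 subunit of the pyruvate dehydrogenase complex, by 1.77 and 1.93. Emb, an accessory protein of monocarboxylate transporters, differed by 1.21 between old and young QSCs and by -2.21 between VCAM and YFP QSCs, the directions that Slc16a1 and Slc16a3 also took.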

How the data were processed

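RNA of sorted mouse satellite cells was hybridised to 30 arrays (10 groups of 3). As deposited by the authors, values are log2 intensities from Affymetrix Expression Console and RMA (background correction, quantile normalization and summary per probe set); no versions are given. Medians of the 35556 probe sets per array were 7.03 to 7.16, so no scaling was added. Probe sets with exactly 1 gene symbol in the platform annotation were kept (21789; 1621 had several and 12146 none), and the brightest represented each of 19938 genes. Dim genes were kept.

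A linear model in limma 3.58.1 (R 4.3.3) took a mean per group over all 30 arrays (20 residual degrees of freedom) and was tested two-sided in 17 comparisons. Calls required an adjusted p (Benjamini-Hochberg) under 0.05 and at least 1.5-fold. The methods read here name no test. Isozyme pairs were tested by exact permutation, adjusted over 39 tests; Eno3 against Eno1 could not be tested. The fit was tested on simulated data. Same-numbered arrays of different groups had a mean correlation of deviations of 0.035, against -0.018 for other numbers, and were not paired. Alternatives were quantile normalization, median centring, a filter at a log2 value of 6, other thresholds, other probe sets, only the compared groups, a replicate block and leaving out each array.

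The genes, the lists and the thresholds were chosen with earlier results of these data known. Array values are given for genes whose called log2 change reached 1 in size in both sorts or between ages, for the most variable gene of each role, and for some others chosen after their values were seen, and at most 4 genes of each other list are named per comparison. Gene positions and promoter windows are from RefSeq (GRCm38.p6), credited to that source.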

Additional observations from a re-analysis of the deposited data

Results flagged for a closer look

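A total of 15 results were marked because a response to injury differed between ages or between sorts by the limma test of the difference itself. Old minus young, the response at 60 h differed by -0.88 for Slc16a1, 0.92 for Pdk1, 0.63 for Pdk2, 0.73 for Pfkfb3, 1.20 for Pygm and 1.02 for Pygl. In young YFP cells Pygm, Pdk2 and Slc16a1 changed by -1.55, -0.98 and 0.28 at 60 h, against -2.74, -1.74 and 1.21 in young VCAM cells. The macrophage markers averaged 9.71 to 9.79 in old and 7.94 to 8.05 in young 60 h arrays.

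VCAM minus YFP, the response at 36 h differed by 1.30 for Slc2a1, -0.60 for Slc2a4, 1.72 for Hk2, 0.77 for Pgam1, 1.20 for Slc16a1, 0.80 for Slc16a3, -0.76 for Pdk2, -1.49 for Pygm and 0.59 for Pygb. Xist was low in the VCAM arrays and high in the YFP arrays on both sides of this comparison. Groups of 3 arrays are too small for a test of outlying arrays.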

How the results depend on the processing

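Of 189 single changes called, none changed sign under any alternative. Quantile normalization lost 8 calls, centring on array medians 7, the mean of all probe sets of a gene 1, the dimmer probe set 3 (all of Ldhb, an alternative added after the data were seen) and a threshold of 2-fold 87, while 0 were lost with dim genes left out or with only the compared groups in the fit. Centring moved the median of all genes past 0.1 in size for 36 h and 84 h in YFP cells (-0.15 and -0.14), for 60 h against 36 h (0.11), for old against young at 60 h (-0.12) and for the age response (-0.14), and for 60 h in old cells it was -0.11 as deposited and -0.12 centred.

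Leaving out each array in turn kept 173 of the 189 calls, and the other 16 lie near 1.5-fold. Besides those named with their results, Gbe1 at 60 h in VCAM cells was lost without the third QSC array (-0.58) or the first or second 60 h array (-0.54 and -0.57), and centring lost Gbe1 there too (-0.51). In YFP cells Pygl at 36 h was lost without the first QSC array (0.54) or the third 36 h array (0.57), Pdk2 and Phkg1 at 36 h without the third QSC array (-0.58 and -0.57), and Pygb at 60 h without the second QSC array (0.58). In old cells Pygb at 60 h was lost without the first QSC array (0.53) or the third 60 h array (0.58), and the age response of Pdk2 without the first array of young 60 h cells (0.58), the first of old QSCs (0.58) or the second of old 60 h cells (0.54). The sort response of Slc2a4 was lost without the third VCAM QSC array (-0.56), the first VCAM array of 36 h (-0.54), the third YFP QSC array (-0.52) or the first YFP array of 36 h (-0.58). That of Pygb was lost without the first VCAM QSC array (0.49), the second or the third VCAM array of 36 h (0.57 for each), the first or the third YFP QSC array (0.58 and 0.56), or the first or the third YFP array of 36 h (0.56 and 0.57). The counts called stayed within 20 to 22 at 60 h in VCAM cells, 11 to 14 at 36 h in YFP cells, 5 to 8 for the age response and 7 to 9 for the sort response.

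With the adjusted p alone, the numbers called were 33, 25 and 33 at 36 h in VCAM, 36 h in YFP and 60 h in YFP cells, 24 and 17 from 36 h to 60 h and from 60 h to 84 h, 22, 18, 16 and 11 between sorts in QSCs and at 36, 60 and 84 h, 21 and 21 between ages in QSCs and at 60 h, 32 at 60 h in old cells, and 22 and 20 for the age and sort responses. At 2-fold they were 14 and 14 at 60 h and 84 h in VCAM cells, 4 and 13 at 36 h and 60 h in YFP cells, 4 and 2 between successive times, 1 and 0 between sorts in QSCs and at 36 h, 1 and 1 between ages in QSCs and at 60 h, and 2 and 4 for the age and sort responses.

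Of 135 pairs of same-numbered arrays 27 correlated above 0.1, so the numbers were not taken as pairs. With the replicate block 20, 22 and 22 genes were called at 36, 60 and 84 h in VCAM cells, and no call was lost. The isozyme test gave 0 calls in VCAM or YFP cells alone, where the smallest possible exact p is 0.1. The number of arrays limits precision.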

Other observations

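Regulators of glycolytic genes and targets of hypoxia were followed in lists of their own. Of 19 regulators measured, 2 rose (10.5%, against 16.6% of all genes) and 9 fell (47.4%, against 12.6%) at 60 h in young VCAM cells, and 4 rose (21.1%, against 17.2%) and 9 fell (47.4%, against 12.8%) in YFP cells. Txnip, an inhibitor of glucose uptake that responds to glucose, fell by 3.28 in VCAM cells and fell by 2.12 in YFP cells. Egln3, a hydroxylase that HIF induces in many cells, rose by 2.90 and 2.56. Epas1 (HIF-2 alpha) fell by 2.88 and fell by 2.05, and Arnt, the partner of both HIF factors, fell by 1.46 and fell by 1.75. Hif1a, named outside the rule after its values were seen, changed by 0.09 and -0.20 and was not called.

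Of 14 hypoxia targets outside glycolysis, 2 rose (14.3%, against 16.6%) and 7 fell (50%, against 12.6%) at 60 h in young VCAM cells, and 2 rose (14.3%, against 17.2%) and 5 fell (35.7%, against 12.8%) in YFP cells. The 2 that rose, named after their values were seen, were Bnip3, a mitophagy receptor (1.15 in VCAM cells and 1.37 in YFP cells), and Ero1a, an oxidase of the endoplasmic reticulum (1.03 and 0.63). Ndrg1 fell by 1.89 in VCAM cells and fell by 2.28 in YFP cells, and P4ha1, a collagen prolyl hydroxylase, fell by 1.64 and fell by 1.33. In old against young 60 h ASCs 6 of the 14 were higher (42.9%, against 4.75% of all genes, with 0 lower), among them Ndrg1 (1.53), Car12 (1.13), Adm (1.13) and Ddit4 (0.86), in samples whose 16 macrophage markers were also higher. The part of those markers was not tested.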
